A study of Nannochloropsis oceanica with 44 samples.

Results

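The genes described here are 149 transcripts of the marine alga Nannochloropsis oceanica that stood at their highest value 24 h after nitrogen was given back to starved cells, and that had come down again 24 h later. They are called overshoot genes below, because at 24 h of resupply they passed both their highest value in deprivation and their values at 48 h and 72 h of resupply. They were chosen from the 872 genes of the authors' cluster 3, and make up 17.1% of that cluster and 5.99% of the 2489 genes in the deposited tables. The rule was applied to the log2 values as deposited and has 5 parts. The value at 24 h of resupply had to exceed each of the other 9 time points by more than 1, which is 2-fold. It could stand at most 5 above the value at 12 h of resupply. The value at 72 h of resupply had to lie within 1 of that at 6 h of deprivation. The value at 72 h of deprivation could be at most 1 above that at 6 h, and the value at 24 h of deprivation at most 1 below it.

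Nitrogen is a building material of protein, nucleic acid and chlorophyll. An alga without it stops dividing, takes down much of its photosynthetic apparatus and stores carbon as oil. When nitrogen returns, oil is used up, pigments and ribosomes are rebuilt and growth starts again.

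The study followed wild-type cells of the strain CCMP1779, grown in liquid culture in continuous light. The deprived groups (N-) had been washed and moved to F/2 medium without nitrogen for 6, 12, 24, 48 or 72 h, and the resupplied groups (NR) had spent 72 h in that medium and then 6, 12, 24, 48 or 72 h in F/2 medium with nitrogen. The labels list 44 libraries in 11 groups of 4, including a 0 h group that is not analysed here because the tables used have no column for it. Every group shares the strain and the growth conditions, and all resupplied groups carry the same history of 72 h without nitrogen, so no resupply group was compared with cells that had never been starved.

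Each gene has 1 value per time point, and the spread between cultures and the depth of the libraries are unknown here. No difference below therefore has a replicate check, an error or a p-value. The quartiles given are over genes, which are not replicates. The rule used values of all 10 time points, and cluster 3 was itself formed from these profiles, so every level and difference of the 149 genes is a description of what was selected. A change of transcript in every cell and a change in the share of cells that carry it cannot be told apart in such cultures. The tables pair no identifier with a gene name, and 0 of the 2489 identifiers occurred among the 160 genes of the reference table used for names. That table holds plastid and mitochondrial genes of another strain, IMET1, so it could name no nuclear gene model of CCMP1779. The members are therefore given by identifier, without function, and no list of pathway genes could be applied.

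The shape shared by the overshoot genes had a slow decline in deprivation, a low point at 12 h NR, a steep step to 24 h NR and a partial return. Relative to 6 h N-, the median over the 149 genes was 0.46 higher at 12 h N-, 0.17 higher at 24 h N-, 0.53 lower at 48 h N- and 1.40 lower at 72 h N-. In resupply it was 1.15 lower at 6 h, 2.22 lower at 12 h, 2.05 higher at 24 h, 0.59 higher at 48 h and 0.69 higher at 72 h. All differences are on the log2 scale as deposited. The 24 h NR value thus stood 4.14-fold above 6 h N- in the median gene, and the value at 72 h NR stood 1.61-fold above it. The median Pearson correlation of a member's 10 values with the median profile of the set was 0.98, and 142 of the 149 genes were above 0.9.

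**Figure D1:**
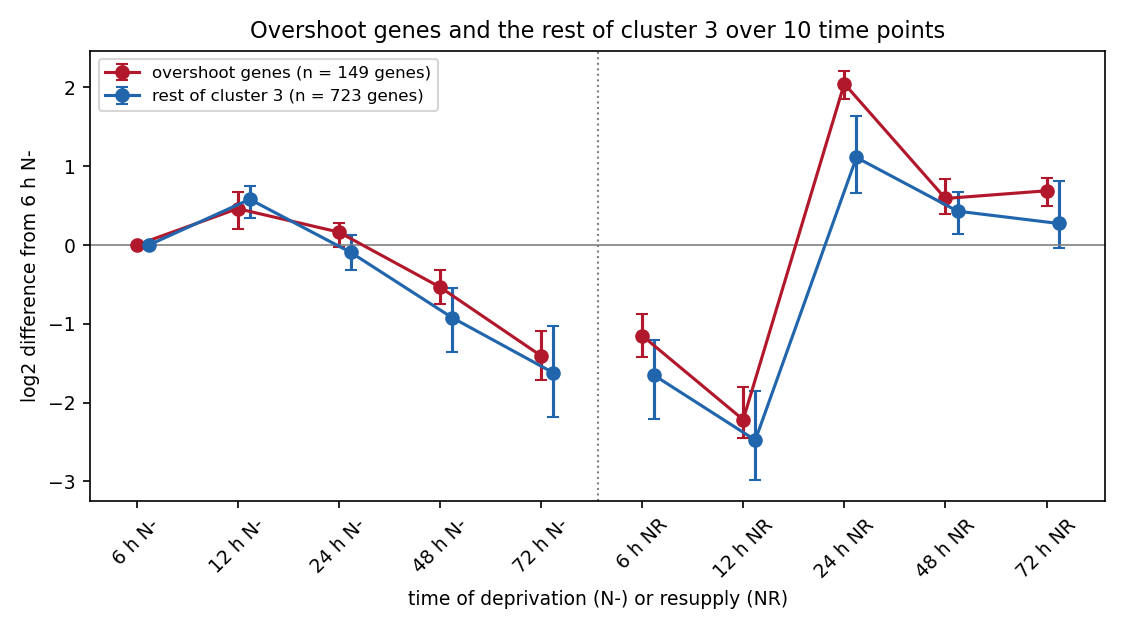
Median log2 difference from 6 h N- at each of the 5 deprivation and 5 resupply times for the 149 overshoot genes (red) and the other 723 genes of cluster 3 (blue); bars span the quartiles over genes and are not replicate errors. The red median is 2.05 at 24 h NR and the blue one 1.11, and the quartile bars do not overlap at that time (lower red quartile 1.85, upper blue quartile 1.64). The red genes were selected for a 24 h NR value more than 1 above every other time, 6 h N- included. This separation therefore follows in large part from the rule.

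Whether the values are corrected for gene length is not known here, so a difference in level between genes is not read as one in abundance. In snap_masked-nanno_4333-abinit-gene-0.3, named for its 24 h NR value, the log2 values in deprivation were 14.79, 15.38, 15.07, 13.83 and 12.55 from 6 h to 72 h. In resupply this gene was at 13.35, 12.04, 17.03, 15.79 and 15.59 over the same hours. It was highest at 24 h NR by 1.25 and lowest at 12 h NR. In maker-nanno_97-snap-gene-0.15, the gene with the widest margin, the values were 7.97, 8.15, 7.97, 7.55 and 6.66 in deprivation. In resupply they were 6.58, 5.75, 10.51, 8.63 and 8.76. Its 24 h NR value stood 1.75 above the next highest, which was that at 72 h NR.

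The margin of 24 h NR over the next highest time is the quantity on which the members were chosen. It ran from 1.00 to 1.75, with a median of 1.23 and quartiles of 1.16 and 1.34, which is 2.34-fold in the median gene. A margin of more than 1 at 24 h NR was found in 8.56% of all genes in the tables, and by the rule in all of the members. Of the 213 genes with it, 212 belong to cluster 3 and 1 to cluster 1. The margin passed 1.5 in 9 members. After maker-nanno_97-snap-gene-0.15 the widest was that of maker-nanno_842-augustus-gene-0.3, with 10.96 at 24 h NR beside 9.26 at 72 h NR. The members nearest the limit were snap_masked-nanno_223-abinit-gene-0.1, with a margin of 1.005, and snap_masked-nanno_5442-abinit-gene-0.37, with 1.01. The nearest gene outside it, snap_masked-nanno_224-abinit-gene-1.60, had 0.997. Another 534 genes of cluster 3 met every part of the rule except the margin, so the members are the upper end of a continuous range and not a separate group.

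The other limits removed fewer genes. The upper limit on the step from 12 h to 24 h NR excluded 13 genes that met all other parts. The nearest of these was augustus_masked-nanno_194-abinit-gene-0.17 with a step of 5.009, and the nearest member was maker-nanno_913-augustus-gene-1.92 with 4.990. The limit on the end of recovery excluded 33, which stood 1.01 to 1.66 above 6 h N- at 72 h NR. Here maker-nanno_1565-snap-gene-0.6 was just outside at 1.006 and augustus_masked-nanno_214-abinit-gene-0.12 just inside at 0.993. The limits on deprivation at 72 h and at 24 h excluded 0 genes that met the rest. With the values as deposited, the rule found no further gene in clusters 1, 2 and 4.

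In deprivation the overshoot genes were mostly highest at 12 h. The highest of the 5 deprivation values fell at 12 h N- in 118 genes, at 24 h N- in 19, at 6 h N- in 11 and at 72 h N- in 1. It fell at 12 h N- in 634 of the other 723 genes of cluster 3 as well, so this was not particular to the set. Between 12 h and 24 h N- the median difference was -0.26 and 0 of the 149 genes were lower by more than 2-fold, against 9.12% of all genes in the tables. In the other 723 genes of cluster 3 the median was -0.67 and 119 were lower by more than 2-fold. The rule asks that 24 h N- be at most 1 below 6 h N-, but only 9 genes of cluster 3 missed that limit. In the 534 genes that met every part but the margin, the median was -0.72, with 94 lower by more than 2-fold. The margin also holds 12 h N- more than 1 below 24 h NR in the members. Among the 9 times other than 24 h NR, 12 h N- was the highest in 384 of the 723 genes and in 24 members. How much of the gap follows from the rule was not tested. Between 24 h and 48 h N- the median over the members was -0.69, with 18 genes lower, against 20.8% of all genes and 282 of the other 723 in cluster 3. Between 48 h and 72 h N- it was -0.89, with 47 genes lower, against 9.92% of all genes and 169 of the other 723. In the median overshoot gene the last day of deprivation thus held the largest of these steps, while in the rest of cluster 3 the medians were -0.85 and then -0.68. The order was the same with columns centred on the median of all genes in the tables. The members then had -0.23 and -0.56, and the others had -0.38 and -0.35. With columns centred on the median of clusters 1, 2 and 4, the members had -0.45 and -0.84. The others then had -0.60 and -0.62, so the order held on every scale for the members only.

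By 72 h N- 118 of the 149 genes were more than 2-fold below 6 h N-, against 43.2% of all genes in the tables. In the rest of cluster 3, 549 of 723 genes were, so this decline was not particular to the set. By the rule, 0 members were more than 2-fold above 6 h N-, against 4.78% of all genes. The median difference over the members was -1.40, which is 2.65-fold lower, with quartiles over genes of -1.71 and -1.09. In the other 723 genes the median was -1.62. The deepest decline was that of maker-nanno_290-augustus-gene-0.11, which went from 9.43 at 6 h N- over 9.75, 8.90 and 8.27 to 6.51 at 72 h N-. It was followed by augustus_masked-nanno_981-abinit-gene-0.3, with 9.77 at 6 h and 7.17 at 72 h N-. The other end was held by augustus_masked-nanno_6263-abinit-gene-0.0, which was at 5.82, 5.83, 5.84, 5.88 and 5.93 over the 5 times of deprivation. It was the only member above its 6 h N- value at 72 h N-, by 0.12. In augustus_masked-nanno_397-abinit-gene-0.14 the difference was -0.11.

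At 6 h NR 116 of the 149 genes were above their 72 h N- value, with a median difference of 0.33. Only 9 were higher by more than 2-fold, against 28.8% of all genes, and 3 were lower by as much, against 22.7%. With columns centred on the median of all genes in the tables the median was 0.66, and 23 were higher by more than 2-fold, against 33.5% of all genes on that scale. In the other genes of cluster 3 the median difference was 0.01, with 369 of 723 above their 72 h N- value. From 6 h to 12 h NR 145 of the 149 were lower, 82 of them by more than 2-fold against 13.8% of all genes, with a median of -1.04 (quartiles -1.18 and -0.75). The other genes of cluster 3 had a median of -0.77, with 229 of 723 lower by more than 2-fold. With centred columns these steps from 6 h to 12 h were -0.95 and -0.68, so the order of the sets held. These differences between the sets are not tested.

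The result was a low point at 12 h NR. It was the lowest of all 10 values in 136 members, and also in 621 of the other 723 genes of cluster 3. Among the members, 72 h N- was the lowest in 11. The exceptions were augustus_masked-nanno_902-abinit-gene-0.2, lowest at 6 h NR, and snap_masked-nanno_985-abinit-gene-1.58, lowest at 24 h N-. Relative to 72 h N-, the median at 12 h NR was -0.74, and 30 members were lower by more than 2-fold, against 27.2% of all genes. This count depends on the scale. It was 7, against 17.6%, with columns centred on all genes, and 67, against 35.3%, with columns centred on clusters 1, 2 and 4. The members with the largest differences downward were augustus_masked-nanno_1402-abinit-gene-0.1 and maker-nanno_981-augustus-gene-0.26. In the first of these deprivation brought little change, with 12.07, 12.28, 11.83, 11.67 and 11.67, and the decline came with resupply, at 9.89 and 9.61 at 6 h and 12 h NR. It then reached 13.37 at 24 h NR and settled at 12.34 and 12.32. In the second the value was 10.12 at 72 h N-, 8.95 at 6 h NR and 8.22 at 12 h NR. The opposite was seen in maker-nanno_290-augustus-gene-0.11 and maker-nanno_807-augustus-gene-0.14, the 2 members that were more than 2-fold above 72 h N- at 12 h NR, against 29.2% of all genes. The first went up from 6.51 at 72 h N- over 7.49 and 7.96 to 10.78 at 24 h NR. The second went from 8.73 to 10.13 and 9.95 before it reached 13.87.

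**Figure D2:**
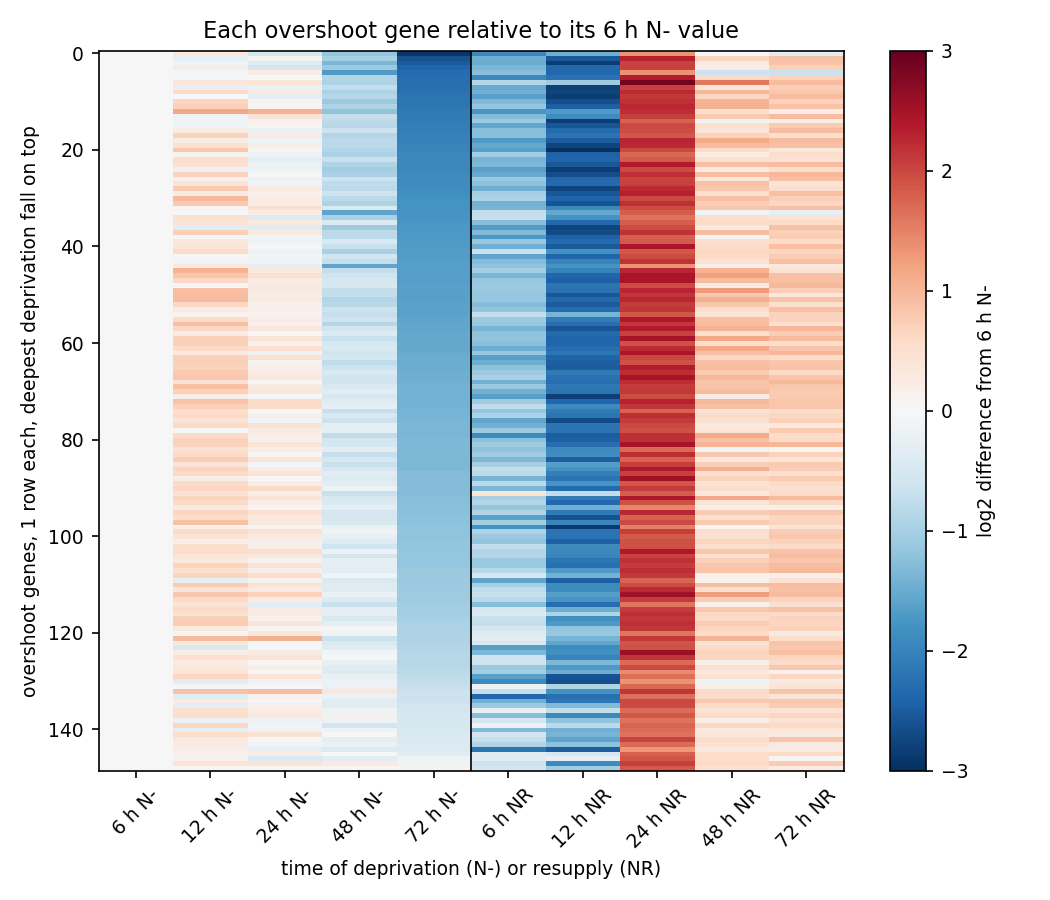
Each row is 1 of the 149 overshoot genes and each column a time point; colour gives the log2 difference from that gene's own 6 h N- value, and rows are ordered by the 72 h N- value, deepest decline on top. The 24 h NR column is red in every row, as the rule requires, and the 12 h NR column is below 0 in every row, including those at the bottom that changed little by 72 h N-.

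All 149 genes then stepped up to 24 h NR by more than 2-fold, against 49.8% of all genes in the tables, with a median difference of 4.23 (quartiles 3.83 and 4.58), which is 18.7-fold. The rule and the cluster both used this step. It ran from 2.14 in snap_masked-nanno_985-abinit-gene-1.58 and 2.29 in maker-nanno_220-snap-gene-0.33 up to the limit of 5. The values of maker-nanno_220-snap-gene-0.33 were nearly level before the step, with 11.46, 11.59, 11.65, 11.44 and 11.09 in deprivation and 11.13 and 10.96 at 6 h and 12 h NR. It then reached 13.26 at 24 h NR, followed by 12.02 and 12.06. The values of maker-nanno_913-augustus-gene-1.92 had a deep course, with 12.58 at 12 h N-, 9.94 at 72 h N-, 9.03 at 12 h NR and 14.02 at 24 h NR. As the rule requires, both ended within 2-fold of where they began, at 12.06 after 11.46 and at 12.30 after 11.80.

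At 24 h NR the overshoot genes stood above deprivation as a whole, and not only above its low end. The median difference from each gene's highest deprivation value was 1.60, which is 3.02-fold, with a range from 1.01 to 2.50. A difference of more than 1 was present in 28.2% of all genes, in 169 of the other 723 genes of cluster 3 and, by the rule, in all members. Against the same hour of deprivation all 149 genes were more than 2-fold higher at 24 h by the rule, against 44.0% of all genes. The median there was 1.88. At 12 h it was -2.58, with 146 genes lower against 62.8%. At 48 h it was 1.12, with 95 genes higher against 47.9%. In 146 members the sign turned from a more than 2-fold lower value at 12 h to a more than 2-fold higher one at 24 h. The same turn was found in 23.4% of all genes. Of the other 723 genes of cluster 3, 695 were more than 2-fold lower at 12 h. At 24 h, counted separately, 449 of them were more than 2-fold higher. The comparisons at these hours do not share a column.

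**Figure D3:**
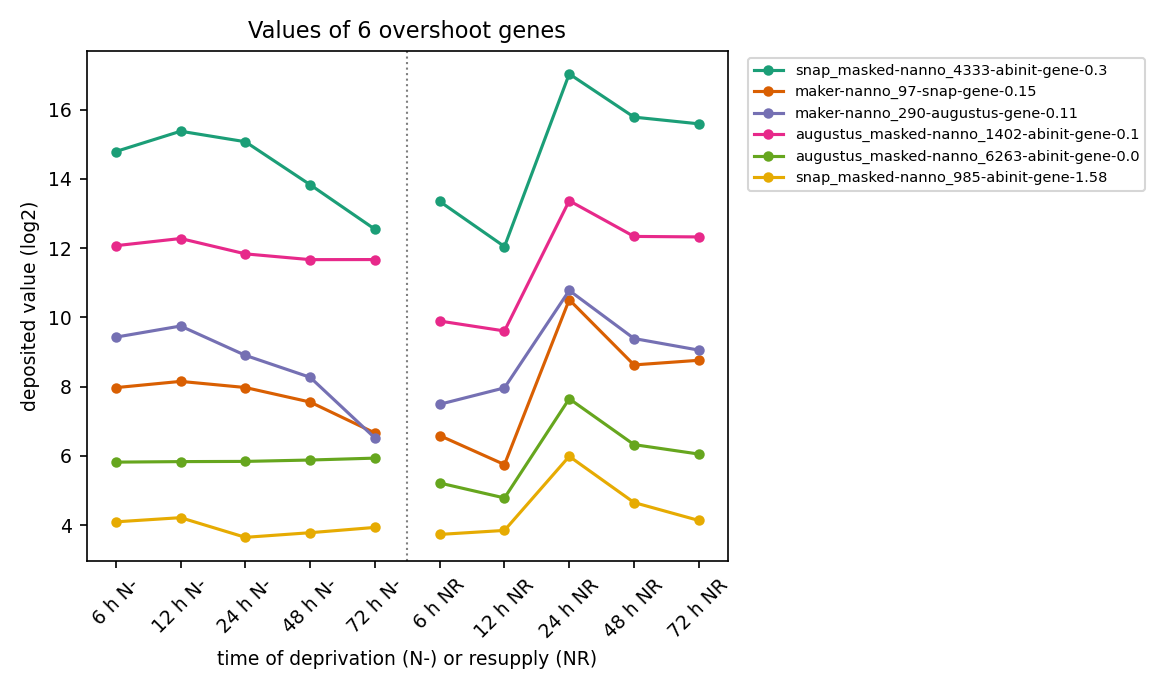
Deposited log2 values of 6 overshoot genes at the 5 times of deprivation and, after the dotted line, the 5 times of resupply; each point is 1 value without a replicate. All 6 are highest at 24 h NR, while their courses before it differ: maker-nanno_290-augustus-gene-0.11 is lowest at 72 h N-, augustus_masked-nanno_1402-abinit-gene-0.1 at 12 h NR, and snap_masked-nanno_985-abinit-gene-1.58 stays between 3.64 and 4.21 until the step.

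The return after 24 h was partial. From 24 h to 48 h NR the median difference was -1.41, which is 2.65-fold lower, with quartiles of -1.56 and -1.25 and a range from -1.99 to -1.005. All members were lower by more than 2-fold by the rule, against 20.0% of all genes and 222 of the other 723 in cluster 3. On the log2 scale the return took back a median of 34.7% of the step from 12 h to 24 h, from 22.5% to 62.4% over the members. From 48 h to 72 h NR the median difference was 0.04, between -0.66 and 0.72, with 84 genes higher and 65 lower. This balance held only as deposited. Centred on all genes the median was 0.18, with 109 higher and 40 lower, and centred on clusters 1, 2 and 4 it was 0.31, with 128 higher and 21 lower. As deposited, no member passed 2-fold in either direction, against 5.46% of all genes higher and 11.4% lower. In the other genes of cluster 3 49 were higher and 8 lower. The rule holds both of these times below 24 h NR and ties 72 h NR to 6 h N-, but does not set one against the other.

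The steepest return was that of snap_masked-nanno_6355-abinit-gene-0.2. It was at 9.11, 9.08, 9.34, 7.42 and 6.79 in deprivation and at 7.83, 6.75, 10.45, 8.46 and 8.46 in resupply. It ended 0.66 below its 6 h N- value, the lowest end of the set. Next came snap_masked-nanno_591-abinit-gene-0.27, with 7.38 at 24 h NR and 5.41 at 48 h NR. The shallowest were snap_masked-nanno_223-abinit-gene-0.1, from 8.66 to 7.66, and snap_masked-nanno_50-abinit-gene-0.2, from 12.18 to 11.16. The latter still had 10.61 at the end, after a start of 9.88 at 6 h N-.

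At 72 h NR 146 of the 149 genes were above their 6 h N- value, with a median difference of 0.69 and quartiles of 0.50 and 0.85. In the 534 genes that met every part of the rule but the margin the median was 0.14. It was 0.27 in the other 723 genes of cluster 3 and 0.08 in all genes in the tables. At 48 h NR 17 members were more than 2-fold above 6 h N-, against 18.8% of all genes, and the median was 0.59. The distribution is cut by the limit of 1, and the 33 genes just beyond it continue it. Which time came next after 24 h NR also differed. It was 72 h NR in 75 genes, 48 h NR in 46, 12 h N- in 24 and 24 h N- in 4. For 121 members the nearest rival of the overshoot was thus a later time of resupply, and for 28 it was a time of early deprivation.

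The depth of the deprivation decline and the height of the step went together within the set. Over the 149 genes the difference between 72 h and 6 h N- and the difference between 24 h and 12 h NR had a Spearman correlation of -0.59 and a Pearson correlation of -0.58. The 2 differences share no column, but they share the libraries, the cluster that formed the set and the limit of 5 on the step, so this is a description. The 118 genes that were more than 2-fold lower at 72 h N- had a median step of 4.37, and the other 31 had 3.45. The median margin at 24 h NR was 1.19 in the 31 genes and 1.24 in the 118. At 6 h NR they were mostly below 72 h N-, with a median of -0.25 against 0.38 in the 118. At 12 h NR the medians relative to 72 h N- were -0.90 and -0.73. Of the 31 genes, 11 were more than 2-fold below 72 h N- at 12 h NR, and of the 118 genes 19 were. The values at 72 h N- stand in both kinds of difference here, which favours opposite signs.

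**Figure D4:**
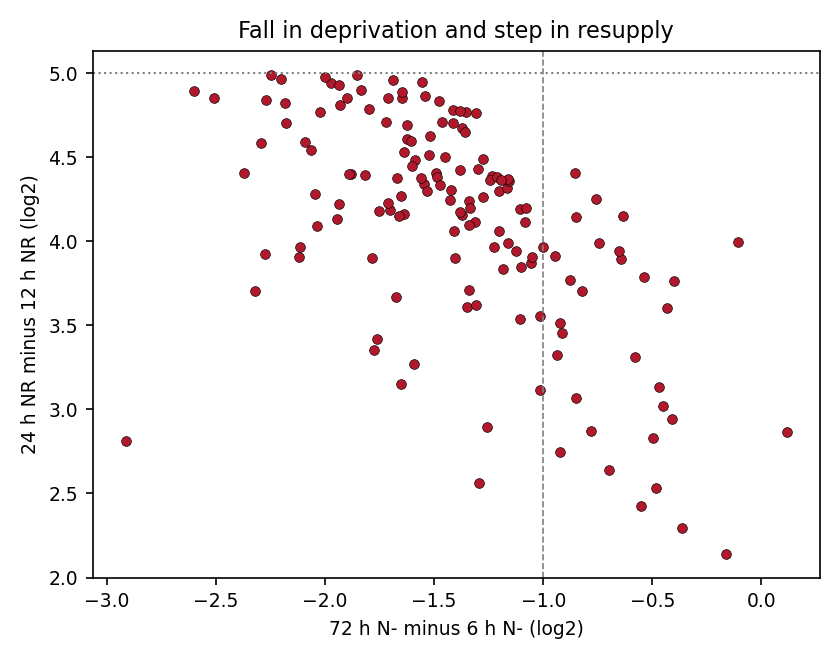
For each of the 149 overshoot genes, the log2 difference between 72 h and 6 h N- (horizontal) and between 24 h and 12 h NR (vertical); the dashed line marks a 2-fold decline and the dotted line the upper limit of 5 in the rule. Genes left of the dashed line (118) have a median step of 4.37 and those right of it (31) one of 3.45.

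How many genes overshoot depends on how the time points are scaled to each other. The median of all genes in the tables was higher at 24 h NR than at any other time, by 0.29 against 48 h NR, the next highest, and by 1.76 against 12 h NR, the lowest. When every column was centred on this median, 148 of the 149 genes were still highest at 24 h NR, and the median margin was 0.84. The margin then exceeded 1 in 31 of them and not in the other 118. The whole rule selected 39 genes, of which 31 were members. The median of all genes is itself moved by cluster 3, which is the largest cluster. With columns centred on the median of clusters 1, 2 and 4 only, a scale added after the values were seen, all 149 were highest at 24 h NR and the rule selected 114 genes, of which 108 were members. The exception under the first centring was snap_masked-nanno_866-abinit-gene-0.15, chosen here after its values were seen. Its values at 6 h, 12 h and 24 h NR were 8.88, 7.72 and 10.28. Neither scale is known to be right, since the genes in the tables were picked for changing.

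**Figure D5:**
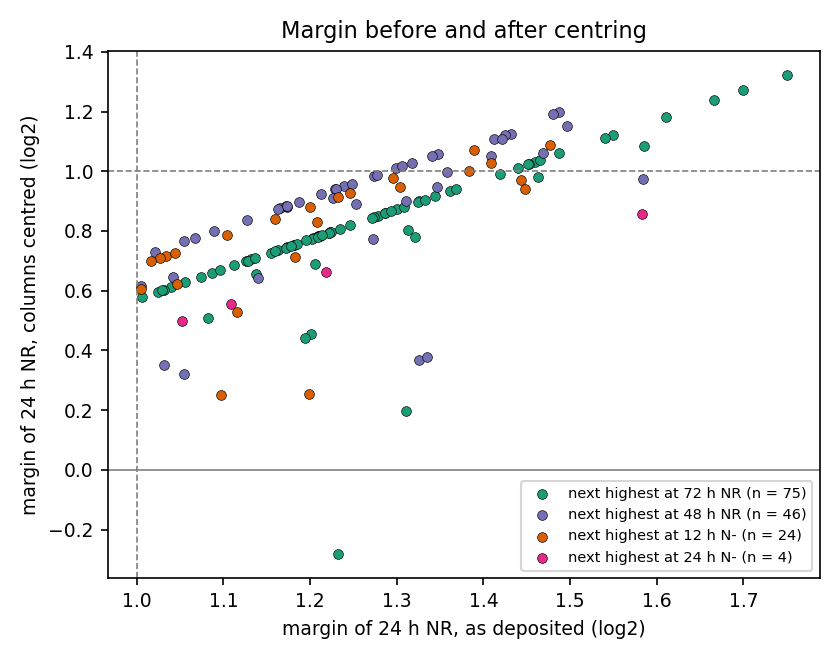
Margin of the 24 h NR value over the next highest time for each of the 149 overshoot genes, as deposited (horizontal) and with every time column centred on the median of all genes in the tables (vertical); colours give the next highest time in the deposited values, and dashed lines mark a margin of 1. After centring 31 genes lie above the line at 1, and 1 gene, which then has its highest value at 6 h NR, lies below 0.

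The direction of most steps did not depend on this choice. With centring on all genes the step from 12 h to 24 h NR had a median of 2.46, with 142 members higher by more than 2-fold, against 28.6% of all genes on that scale. The return to 48 h NR had one of -1.12, with 102 members lower, against 11.2%. The decline from 6 h to 72 h N- became -0.57, with 30 members lower by more than 2-fold in place of 118. On that scale 23.1% of all genes were, so that this share was near the background. With centring on clusters 1, 2 and 4 the decline was -1.09, with 87 members lower by more than 2-fold, against 36.2% of all genes. The turn between 12 h and 24 h was left in 82 members with centring on all genes, against 8.40%. The position of 6 h NR relative to 6 h N- turned from -1.15 to 0.02 with centring on all genes. It stayed negative with centring on clusters 1, 2 and 4, whose median was 9.75 at 6 h N- and 9.40 at 6 h NR. Whether the overshoot genes were low at 6 h NR thus cannot be said without knowing the scale. At 12 h NR the median stayed below 6 h N-, at -0.96 with centring on all genes.

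Gene models and contigs were not used by the rule. Of the 149 identifiers, 47 (31.5%) name a model promoted by evidence (prefix maker) and 102 a prediction on masked sequence, 56 by augustus and 46 by snap. The share of promoted models was 26.4% in the rest of cluster 3 and 34.8% among all genes in the tables. The members lie on 130 contigs. On 17 contigs there are 2 members and on contig 938 there are 3, so 37 members (24.8%) share a contig with another. Among the other 723 genes of cluster 3, 365 shared a contig with another of them, a count that grows with the size of the set. The same 130 contigs hold 352 other genes of the tables, 127 of cluster 1, 64 of cluster 2, 98 of cluster 3 and 63 of cluster 4.

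The 20 pairs within a contig had a median Pearson correlation of 0.98 over the 10 times, from 0.85 to 0.998, and the 11006 other pairs of members had one of 0.97. All of these are high because the rule selects 1 shape. On contig 306, the step from 12 h to 24 h NR was 4.16 in maker-nanno_306-augustus-gene-0.30 and 2.74 in snap_masked-nanno_306-abinit-gene-0.17. On contig 913, maker-nanno_913-augustus-gene-1.92 and snap_masked-nanno_913-abinit-gene-1.63 had steps of 4.99 and 4.93. The pair with the lowest correlation was on contig 981. There augustus_masked-nanno_981-abinit-gene-0.3 had a deprivation decline of -2.60 by 72 h N-, whereas maker-nanno_981-augustus-gene-0.26 had its decline in resupply, and the steps were 4.89 and 3.99. Whether models of one contig are separate transcripts is not known from the tables.

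The overshoot genes were not alone in their course. Of the other 723 genes of cluster 3, 500 had a correlation above 0.9 with the median profile of the members, and 48 were closer to it than the median member. The least typical members were snap_masked-nanno_985-abinit-gene-1.58, with a correlation of 0.75, and snap_masked-nanno_866-abinit-gene-0.15. The lowest of the 10 values was under 6 in 44 members and at least 6 in 105, and in these 105 the median step from 12 h to 24 h NR was 4.34.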

How the data were processed

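Per the labels' protocols, 2 cultures were harvested at each time and single-end reads of 50 bases were trimmed with Trimmomatic 0.32, aligned uniquely with STAR 2.3.0e to the CCMP1779 assembly and counted on exons with HTSeq 0.6.1. Unique alignment undercounts near-identical genes. Genes passing the authors' DESeq2 test (log2 fold change over 1, adjusted p-value under 0.01) were put into 4 k-means clusters with MeV 4.8.1, per the labels' protocols.

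The deposited tables hold 1 log2 value per gene and time, between 1.46 and 19.5. The log2 scale was inferred from the values. How libraries were scaled, transformed and joined per time is not given in the sources used here. Gene names were not used here, since no identifier matched.

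Differences of these values, medians, quartiles, counts past 1 and correlations were computed with Python 3.11.15, numpy 2.4.6 and pandas 2.3.3. The rule was tested on simulated profiles. No test between times was possible. The members, splits and comparisons were chosen with earlier results of these data known. Named genes are the 2 highest and 2 lowest members in 7 quantities (24 h NR value, margin, steps 12 to 24 h and 24 to 48 h NR, 72 h minus 6 h N-, 12 h NR minus 72 h N-, 72 h NR minus 6 h N-), members sharing contigs and the genes nearest each limit. The genes lowest at unusual times or least typical were chosen after their values were seen.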

Additional observations from a re-analysis of the deposited data

Results flagged for a closer look

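The contrast of resupply with deprivation changed sign between 2 hours in 146 of the 149 overshoot genes. At 12 h these were more than 2-fold lower in resupply than in deprivation, and at 24 h more than 2-fold higher. The turn was present in 23.4% of all genes in the tables. The rule requires the difference at 24 h, but sets no limit between 12 h NR and 12 h N-. The lower value at 12 h was not particular to the set. Of the other 723 genes of cluster 3, 695 were more than 2-fold lower at 12 h. At 24 h, counted separately, 449 of them were more than 2-fold higher. The difference between the 2 hours was not tested. After centring on all genes, 82 members showed the turn, against 8.40% of all genes.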

How the results depend on the processing

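The rule selected 39 genes with columns centred on the median of all genes in the tables. It selected 320 with a margin above 0.5, 9 with a margin above 1.5 and 36 with 72 h NR within 0.5 of 6 h N-. Dropping the limit on the step gave 162 genes, applying it to all clusters gave 149 and centring on clusters 1, 2 and 4 gave 114. Over the 149 members, centring on all genes moved the median step from 12 h to 24 h NR to 2.46, that from 24 h to 48 h NR to -1.12 and the margin over the highest deprivation value to 1.13. It moved the median of 72 h minus 6 h N- to -0.57 and that of 12 h NR minus 72 h N- to -0.32. Centring on clusters 1, 2 and 4 gave 4.08, -1.51, 1.49, -1.09 and -0.98. Among the 105 members with no value under 6 the step was 4.34, the return -1.42 and the margin 1.62. None of these medians reversed, whereas that of 6 h NR minus 6 h N- turned from -1.15 to 0.02 with centring on all genes. It stayed negative with centring on clusters 1, 2 and 4. The cause of the shifts was not tested. No paired analysis was possible because the tables hold 1 value per time point. Leaving out a replicate could not be run for the same reason. Read depth is unknown here and limits every value to an unknown degree.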
